A study of Mus musculus with 11 samples.

Results

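The genes described are 9 genes of the DNA damage response and of homologous recombination repair, followed in whole mouse ovaries at 3 ages by bulk RNA sequencing. They are the 9 of the 54232 genes in the count table that carry the symbols Atm, Atr, Chek1, Chek2, H2afx, Brca1, Brca2, Fancd2 and Blm. The genes were chosen by earlier results of these samples, including the log2 fold changes against 2 months and a lower level of H2afx in old ovaries, so comparisons of these 9 genes with the youngest age are a description. Where calls by a threshold are counted for them, they serve to place the genes and support nothing. All ovaries were wild type, and the groups differed only in age as far as the labels say. The ages were 2 months (4 samples), 18 months (4 libraries) and 24 months (3 samples), described in the series as young, old and post-reproductive. The library names of the youngest and oldest groups carried 8wk and 22m instead of 2 and 24 months. Nothing in the labels ties samples to separate animals, so p-values measure the spread between these samples, which may be technical.

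A break through both strands of DNA activates the kinase Atm, and single-stranded DNA at a stalled replication fork or a resected break activates its relative Atr. These kinases phosphorylate the histone variant encoded by H2afx in the chromatin around the damage and switch on the checkpoint kinases encoded by Chek2 and Chek1, which hold the cell cycle. Breaks are then repaired by homologous recombination, in which Brca1 helps to open the ends and Brca2 prepares them for strand exchange, with Fancd2 acting at crosslinks and the helicase Blm taking the joined strands apart. In the ovary the same genes act in the meiotic oocyte, which is arrested for most of its life with its breaks repaired, and in the dividing granulosa cells of growing follicles.

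Library totals were 26061630 to 33407509 counts for 9 of the 11 libraries. The other 2 libraries, 18 month replicates 3 and 4, held 5231724 and 8892915 counts and differed from each other by little more than sampling noise, with a chi-square of 1.10 per gene where every other pair within an age gave 28.7 or more. They were summed and counted as 1 sample, called 18 month replicate 3, which left 4, 3 and 3 samples. Levels are in CPM, the counts of a gene relative to the library total, after scaling by TMM, edgeR's trimmed mean of M-values. Of the 20331 genes that passed the filter on low counts, 11.6% were called at 18 months against 2 months and 35.0% at 24 months against 2 months, at an edgeR adjusted p of 0.05. Granulosa cell markers were present in all samples, with 10 genes summing to 1482 to 4192 CPM, so the label of ovary was met. All 9 repair genes passed the filter, with 61 to 1844 counts per gene and sample.

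The plain result was a split among the 9 genes. Chek1 stood 4.42-fold lower at 18 months and 5.36-fold lower at 24 months than at 2 months, Brca1 3.65-fold and 4.93-fold lower, and Fancd2 2.63-fold and 3.00-fold lower. H2afx was 2.09-fold and 2.04-fold lower and Blm 1.76-fold and 2.16-fold lower. Chek2 and Brca2 were lower by 1.45-fold to 1.67-fold. The upstream kinases Atm and Atr had fold changes close to 1 at both ages. Between 18 and 24 months edgeR's test called none of the 9 genes. In whole tissue, fewer cells of a type and less RNA per cell cannot be told apart, and this holds for every difference given here.

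**Figure D1:**
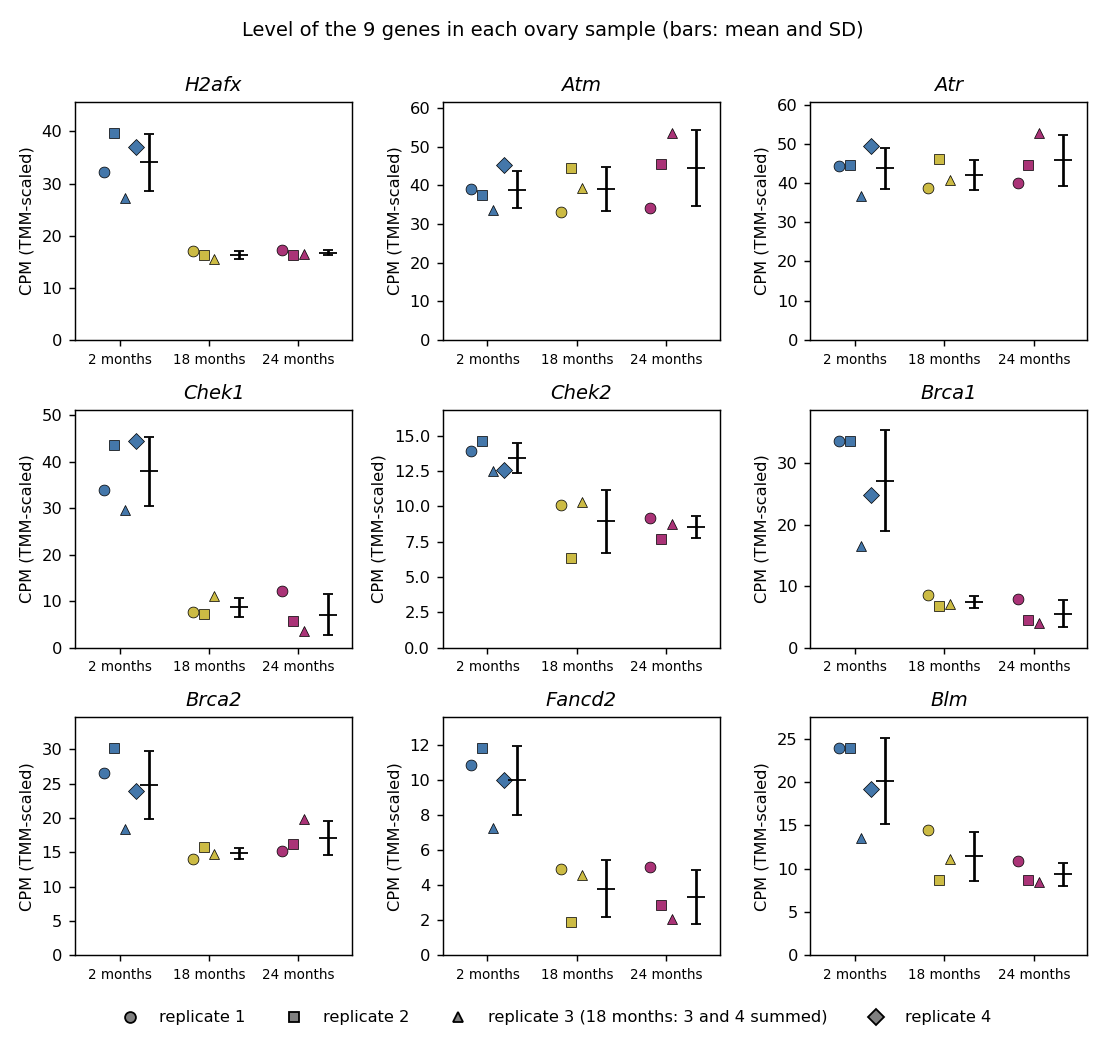
Level of each of the 9 genes in CPM (y axis, from 0) in each ovary sample by age (x axis), with symbols for replicate numbers and bars for the mean and SD beside each group. Chek1 lay at 29.6 to 44.6 CPM at 2 months and at no more than 12.1 CPM in any older sample, while the points of Atm and Atr overlapped across ages.

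Atm, the kinase that answers to double-strand breaks (mm10 chr9:53439149-53536740, minus strand), measured 39.2, 37.5, 33.7 and 45.4 CPM in the 4 samples of 2 months. It measured 33.1, 44.6 and 39.4 CPM at 18 months and 34.1, 45.7 and 53.6 CPM at 24 months. The 3 ages overlapped, and the highest value was that of 24 month replicate 3. The log2 fold change was 0.00 (SE 0.170) at 18 months against 2 months, with a 95% interval of -0.38 to 0.38. At 24 months it was 0.19 (SE 0.169, interval -0.19 to 0.57), so changes of up to that width are not excluded by these samples.

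Atr, the kinase that answers to single-stranded DNA at stalled forks (chr9:95857597-95951781, plus strand), measured 44.2, 44.6, 36.7 and 49.5 CPM at 2 months. The values were 38.8, 46.2 and 40.9 CPM at 18 months and 39.9, 44.6 and 52.8 CPM at 24 months. All ages overlapped again, and the lowest sample of all was 2 month replicate 3. The log2 fold changes were -0.06 (interval -0.36 to 0.24) and 0.06 (interval -0.23 to 0.36), and their sign changed between ways of processing. The ratio of Atm to Atr within a sample stayed between 0.841 and 1.02 across the 10 samples.

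Atr shares part of its locus with other annotated transcripts. The antisense gene Gm16794 overlaps 462 exon bases of Atr on the other strand and rose from 0.986 ± 0.132 CPM (SD, n = 4) (the young samples) to 1.89 ± 0.228 (n = 3) in the 18 month samples and 2.21 ± 0.265 (n = 3) in those of 24 months. Its log2 fold changes were 0.94 (edgeR adjusted p = 0.0302) and 1.17 (adjusted p = 0.0058), and neither older group overlapped the 2 month samples. The 18 month call of Gm16794 was kept in 12 of 19 alternative ways of processing and lost without 2 month replicate 1, 2 or 4 or 18 month replicate 2 or 3, while the 24 month call was kept in all 19. Whether the counting used strand is not given in the sources used here, so reads from the shared stretch cannot be assigned with certainty. The level of Gm16794 was a small part of that of Atr. A second antisense gene, 1700065D16Rik, at the start of Atr, had 22 counts in all samples together.

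Chek1 encodes the kinase that Atr activates to hold cells in S phase and before mitosis (chr9:36708482-36727065, minus strand). It measured 33.8, 43.7, 29.6 and 44.6 CPM at 2 months. The older samples measured 7.65, 7.22 and 11 CPM at 18 months and 12.1, 5.63 and 3.55 CPM at 24 months. Every older sample lay far under every young one, and the 24 month samples were the most spread, with a coefficient of variation of 63.0% against 19.5% at 2 months. The log2 fold change was -2.14 (SE 0.389) at 18 months and -2.42 (SE 0.393) at 24 months against 2 months.

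Chek2 encodes the kinase that Atm activates and that eliminates damaged oocytes in the mouse (chr5:110839979-110874145, plus strand). It measured 13.9, 14.7, 12.5 and 12.6 CPM at 2 months, close together. At 18 months it measured 10.1, 6.37 and 10.3 CPM and at 24 months 9.18, 7.71 and 8.72 CPM. No older sample reached the lowest young one, although the gap was small, and the log2 fold changes were -0.59 (SE 0.190) and -0.65 (SE 0.189). The level of Chek1 was 2.37 to 3.54 times that of Chek2 in CPM at 2 months, 0.758 to 1.13 times at 18 months and 0.407 to 1.32 times at 24 months. The young and older ratios did not overlap.

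H2afx encodes histone H2A.X, which carries the phosphorylation known as gamma-H2AX at breaks (chr9:44334694-44336077, plus strand). Its level was 32.2, 39.7, 27.25 and 37.0 CPM at 2 months. It was 17.15, 16.3 and 15.5 CPM at 18 months and 17.3, 16.3 and 16.6 CPM at 24 months. All 6 older samples sat in a narrow band with a coefficient of variation of 5.04% at 18 months and 2.94% at 24 months, well under the lowest young sample. The log2 fold change was -1.06 (SE 0.137, interval -1.37 to -0.76) at 18 months and -1.03 (SE 0.136, interval -1.33 to -0.72) at 24 months. The RNA level says nothing of how much of the histone was phosphorylated.

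H2afx was compared with the 5 other H2A variant genes listed beside it. H2afz, the replacement variant found at promoters, fell from 116 ± 19.1 CPM (SD, n = 4) to 65.1 ± 10.01 (n = 3) and 60.75 ± 5.76 (n = 3), with log2 fold changes of -0.84 (edgeR adjusted p = 0.0154) and -0.94 (adjusted p = 0.00364). The ratio of H2afx to H2afz averaged 0.295 ± 0.0343 (SD, n = 4), 0.253 ± 0.0261 (n = 3) and 0.277 ± 0.0175 (n = 3) at 2, 18 and 24 months, and the 3 ages overlapped. H2afv and H2afy also fell at 24 months, by 0.33 and 0.39 on the log2 scale. In all, 1 of the 5 genes was called lower at 18 months and 4 at 24 months, with none higher, where 5.51% and 15.8% of all genes were called lower. Leaving out 1 sample at a time gave 0 to 1 and 1 to 4 of them. H2afz lost its 18 month call without 2 month replicate 1 or 18 month replicate 2 or 3. At 24 months H2afz was called in all 19 alternative ways of processing, H2afv in 15, H2afy in 13 and H2afj in 9.

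Brca1 encodes the ubiquitin ligase that promotes end resection (chr11:101488764-101551955, minus strand). It measured 33.7, 33.6, 16.6 and 24.9 CPM at 2 months. The levels were 8.57, 6.75 and 7.03 CPM at 18 months and 7.99, 4.55 and 4.04 CPM at 24 months. The groups did not overlap, but the young samples were uneven, with 2 month replicate 3 well under the other 3. The log2 fold change was -1.87 (SE 0.313) at 18 months and -2.30 (SE 0.319) at 24 months against 2 months.

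Brca2 encodes a protein that acts on resected DNA ahead of strand exchange (chr5:150522630-150570329, plus strand). It measured 26.6, 30.1, 18.4 and 23.9 CPM at 2 months. At 18 months it measured 14.1, 15.7 and 14.8 CPM, and at 24 months 15.15, 16.2 and 19.8 CPM. The 18 month samples lay under all young ones, whereas 24 month replicate 3 lay above 2 month replicate 3. The log2 fold changes were -0.74 (SE 0.175) and -0.54 (SE 0.173). The level of Brca1 was 0.905 to 1.27 times that of Brca2 in CPM at 2 months, 0.430 to 0.610 times at 18 months and 0.204 to 0.527 times at 24 months.

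Fancd2 encodes the protein that is ubiquitinated at DNA crosslinks (chr6:113531682-113597017, plus strand). It had the lowest counts of the 9 genes, with 10.9, 11.8, 7.27 and 10.01 CPM at 2 months. The older samples measured 4.92, 1.92 and 4.57 CPM at 18 months and 5.04, 2.87 and 2.09 CPM at 24 months. All older samples were lower than all young ones, and the log2 fold changes of -1.40 (SE 0.396) and -1.59 (SE 0.398) had the widest errors of the 9 genes. Fancd2os, which shares 257 exon bases with Fancd2 on the other strand, had 13 counts in all samples together.

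Blm encodes the RecQ helicase whose loss causes Bloom syndrome in people (chr7:80454733-80535119, minus strand). It measured 23.9, 23.9, 13.5 and 19.2 CPM at 2 months. At 18 months it measured 14.4, 8.73 and 11.1 CPM, and at 24 months 10.9, 8.68 and 8.49 CPM. At 18 months the groups overlapped through 18 month replicate 1 and 2 month replicate 3, while at 24 months they were separate. The log2 fold changes were -0.82 (SE 0.241) and -1.11 (SE 0.242).

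**Figure D2:**
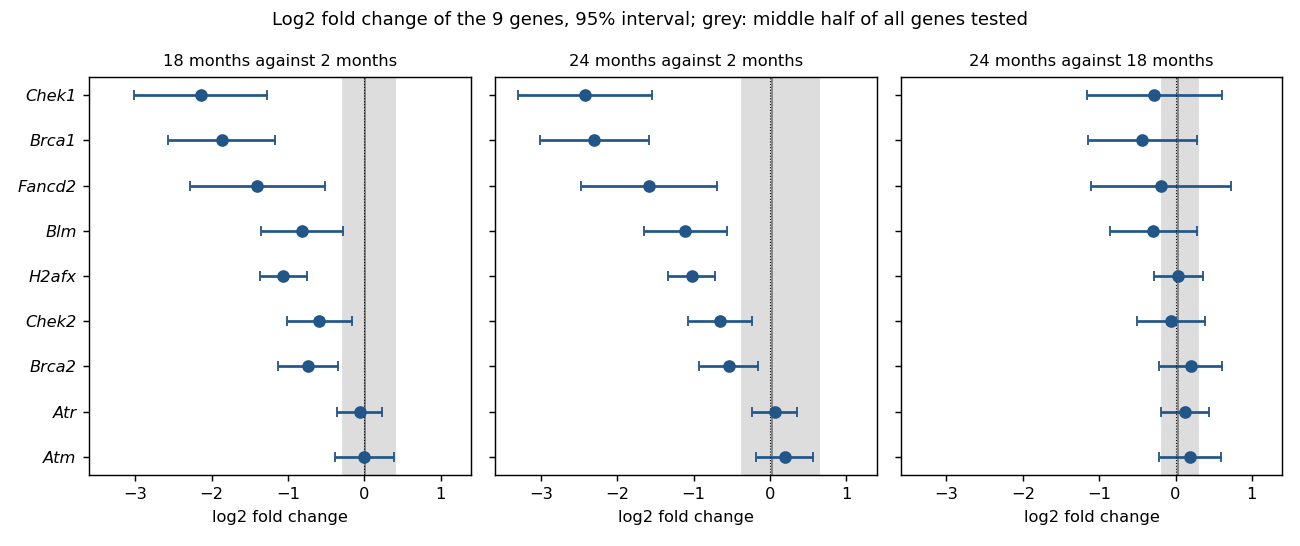
Log2 fold change (x axis) of each of the 9 genes (y axis) in the 3 age comparisons, with bars for the 95% interval of edgeR's fit and a grey band between the quartiles of all 20331 genes tested. Chek1 at -2.14 and -2.42 and Brca1 at -1.87 and -2.30 lay farthest from 0 against 2 months, and every interval crossed 0 between 18 and 24 months.

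Counted by the threshold, 5 of the 9 genes were called lower at 18 months (H2afx, Brca1, Chek1, Brca2 and Fancd2), where 5.51% of all genes tested were called lower. At 24 months 7 of 9 were called lower, all but Atm and Atr, where 15.8% of all genes were called lower. No member was called higher. Groups that did not overlap in CPM, with the older group lower, were seen for 6 members at each age, where they were seen for 13.7% of all genes at 18 months and 20.4% at 24 months. The median log2 fold change of the 9 genes was -0.82 at 18 months and -1.03 at 24 months, against 0.01 and 0.03 over all genes. These counts follow from how the genes were chosen and are printed only to place them.

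The counts moved with the samples, and since the genes were chosen on these comparisons, calls that held under other processing are not evidence for them. At 18 months they were 3 of 9 without 2 month replicate 1, 2 or 4 or without 18 month replicate 1, and 2 of 9 without 18 month replicate 2 or 3. At 24 months they were 4 of 9 without 24 month replicate 2 or 3. H2afx was called in all 19 alternative ways of processing at both ages, with log2 fold changes of -1.17 to -0.98 and -1.14 to -0.85. Brca1, Chek1 and Blm were called in all 19 at 24 months. At 18 months, Brca1 was called in 18 (not without 18 month replicate 3) and Chek1 in 17 (not without 18 month replicate 2, nor with a replicate block), with all fold changes of the same sign. Brca2 was called in 11 of 19 at 18 months and 7 of 19 at 24 months, Fancd2 in 9 and 17, Chek2 in 2 and 13, and Blm at 18 months in 4.

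Between 18 and 24 months 0 of the 9 genes were called by edgeR's quasi-likelihood test, which called 0.00492% of all genes (1 gene), and 0 of the 9 had an unadjusted p under 0.05. DESeq2 and limma-voom also called 0 of 9. Samples of these ages did not overlap for 5.36% of all genes with the older lower and 6.73% with the older higher, and for 0 of the 9 genes. Within the 3 same-numbered pairs of these ages, Brca1 and Blm were lower at 24 months in all 3, and H2afx, Atm and Brca2 were higher in all 3. A pairing is not established and the share over all genes was not taken, so these directions support nothing. The H2afx pairs of 18 and 24 months stood at 17.15 and 17.28, 16.27 and 16.33, and 15.51 and 16.57 CPM. With the replicate number as a block none of the 9 was called either, and the lowest edgeR adjusted p was again that of Brca1, 0.582 at a log2 fold change of -0.48. Here the lowest edgeR adjusted p among the 9 was that of Brca1, with a log2 fold change of -0.44 (SE 0.321, adjusted p = 0.637). H2afx stood at 0.04 with a 95% interval of -0.28 to 0.36 (edgeR adjusted p = 0.943). The widest were those of Fancd2 at -0.19 (adjusted p = 0.884) and Chek1 at -0.28 (adjusted p = 0.813), so these samples do not show that the ages were alike. Atm (0.19, adjusted p = 0.715), Atr (0.13, adjusted p = 0.757) and Brca2 (0.20, adjusted p = 0.704) had values above 0, each with 24 month replicate 3 as the highest sample.

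The order of the genes by level changed with age. Per kilobase of the longest principal transcript, H2afx was highest at every age, with 24.6 ± 3.96 CPM per kb (SD, n = 4) at 2 months, 11.8 ± 0.594 (n = 3) at 18 months and 12.1 ± 0.356 (n = 3) at 24 months. Chek1 held rank 2 at 2 months with 9.99 ± 1.94 CPM per kb and rank 6 at both older ages with 2.27 ± 0.545 and 1.87 ± 1.18. Atr moved from rank 4 to rank 2 at 5.40 ± 0.650, 5.18 ± 0.472 and 5.65 ± 0.805 CPM per kb, without a change of its own beyond the spread. Atm moved from rank 7 to rank 3, at 3.98 ± 0.497, 3.99 ± 0.588 and 4.54 ± 1.00 CPM per kb.

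The other genes kept closer places. In the same order of ages, Chek2 stood at 5.90 ± 0.465, 3.93 ± 0.978 and 3.75 ± 0.331 CPM per kb and Blm at 4.38 ± 1.08, 2.49 ± 0.621 and 2.03 ± 0.286. Brca1 went from 4.14 ± 1.25 to 1.13 ± 0.150 and 0.841 ± 0.326 CPM per kb, under Brca2 at 2.31 ± 0.464, 1.39 ± 0.0764 and 1.59 ± 0.230. Fancd2 was last throughout at 1.81 ± 0.356, 0.691 ± 0.298 and 0.605 ± 0.277. At 2 months the samples of H2afx and of Chek1 did not overlap those of the next gene in the order, nor did those of Atm and Brca2, while the neighbours from Chek2 down to Atm overlapped, as did Brca2 and Fancd2. At 18 months neighbours overlapped from Atm down to Chek1, and at 24 months from Atr to Chek2, from Blm to Brca2, and for Brca1 and Fancd2.

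The start regions of the genes are shown because Chek1 and Brca1 were much lower in old ovaries while Atm and Atr were not. RefSeq windows of 300 bases, from 250 before to 50 after the start (build GRCm38.p6), were matched for 7 of the 9 genes, which leaves H2afx and Fancd2. Motifs were chosen after the sequences were at hand. The E2F motif was written as TTCCCGC, with TTCGCGC taken as a second form, while TTGCCGC was the next and TTGGCGC the last. The cell cycle homology region was written as TTTGAA, with TTTAAA as its other form, and the box known as CCAAT was searched too. All were searched on both strands. No 2 of the matches overlapped. E2F factors and the homology region are known from genes switched on in dividing cells. Each sequence runs 5' to 3' along the gene's own strand, and capitals mark the matched letters.
Chek1 promoter (chr9:36726609-36726908, minus strand): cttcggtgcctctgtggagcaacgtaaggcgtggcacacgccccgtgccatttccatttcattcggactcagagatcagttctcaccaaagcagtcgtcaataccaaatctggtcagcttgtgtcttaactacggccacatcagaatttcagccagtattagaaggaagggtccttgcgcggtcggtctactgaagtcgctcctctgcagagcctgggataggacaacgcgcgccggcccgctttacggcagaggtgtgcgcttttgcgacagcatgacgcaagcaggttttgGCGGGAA
Brca1 promoter (chr11:101551906-101552205, minus strand): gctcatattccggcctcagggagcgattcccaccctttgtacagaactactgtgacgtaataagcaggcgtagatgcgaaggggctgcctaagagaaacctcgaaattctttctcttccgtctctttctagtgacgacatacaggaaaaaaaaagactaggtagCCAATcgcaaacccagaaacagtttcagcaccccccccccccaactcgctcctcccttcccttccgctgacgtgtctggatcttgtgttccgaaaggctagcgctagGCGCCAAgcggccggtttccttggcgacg
Atm promoter (chr9:53536622-53536921, minus strand): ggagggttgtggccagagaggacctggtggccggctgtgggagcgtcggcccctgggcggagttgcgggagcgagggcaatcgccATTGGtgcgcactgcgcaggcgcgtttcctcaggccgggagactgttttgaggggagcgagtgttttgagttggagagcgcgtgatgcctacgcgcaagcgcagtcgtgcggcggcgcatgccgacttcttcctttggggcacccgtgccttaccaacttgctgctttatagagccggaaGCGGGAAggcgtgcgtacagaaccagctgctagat
Atr promoter (chr9:95857347-95857646, plus strand): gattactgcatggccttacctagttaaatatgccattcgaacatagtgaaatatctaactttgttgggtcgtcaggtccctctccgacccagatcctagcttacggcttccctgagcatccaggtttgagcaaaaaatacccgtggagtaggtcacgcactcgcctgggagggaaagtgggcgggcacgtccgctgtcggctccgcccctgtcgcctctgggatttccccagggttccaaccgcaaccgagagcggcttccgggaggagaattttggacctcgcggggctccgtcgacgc
The E2F motif was found once each in Chek1 (44 bases after the start, as GCGGGAA), Brca1 (22 after, as GCGCCAA) and Atm (16 after, as GCGGGAA), and Brca1 and Atm also held a CCAAT on one strand or the other. Atr held none of the 3 motifs in its window. Brca2, Chek2 and Blm, not printed, held 1 E2F match each before the start. Chek2 and Blm also held 2 CCAAT matches each, and 37.4% of all windows held a CCAAT. So 6 of the 7 windows had an E2F match, against 9.57% of the 32817 windows of all genes in the table. The windows of all genes were not matched for GC content, which was 53.7% to 66.0% in these 7. With motifs chosen after the sequences were at hand, these shares support nothing. The homology region was in 0 of 7 windows, against 27.6% of all. An E2F match was thus found both in a gene that was lower and in Atm, which was not, and a match is a description of letters, not a bound site. The RefSeq start of Chek1 lies inside the span that the count table gives for the gene.

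Several of the 9 genes share their start region with a gene on the other strand. Nbr1, an autophagy receptor, starts 194 bases from Brca1. It measured 296 ± 30.6 CPM (SD, n = 4) at 2 months, 259.8 ± 35.6 (n = 3) at 18 months and 224 ± 14.3 (n = 3) at 24 months. Its log2 fold change was -0.19 at 18 months (edgeR adjusted p = 0.343) and -0.41 at 24 months (adjusted p = 0.0338), against -1.87 and -2.30 for Brca1. That call of Nbr1 was lost in 7 of 19 alternatives.

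Emc3, a subunit of a complex that inserts membrane proteins, starts 30 bases from Fancd2. It measured 144 ± 23.7 CPM (SD, n = 4), 119 ± 21.3 (n = 3) and 92.8 ± 10.4 (n = 3). Its log2 fold changes were -0.27 (edgeR adjusted p = 0.285) and -0.63 (adjusted p = 0.0164, and 0.0551 without 24 month replicate 3). Hscb, a chaperone of iron-sulfur cluster assembly that starts 202 bases from Chek2, had log2 fold changes of 0.01 (adjusted p = 0.987) and 0.04 (adjusted p = 0.886). Npat, a coactivator of histone genes that starts 307 bases from Atm, had -0.19 (adjusted p = 0.389) and -0.24 (adjusted p = 0.200). The difference between a gene and its neighbour was not tested. Gm42531, annotated within an intron of Brca2, had log2 fold changes of -0.65 (adjusted p = 0.477) and 0.11 (adjusted p = 0.878). No other gene overlapping or starting beside the 9 genes passed the filter, of 16 found.

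**Figure D3:**
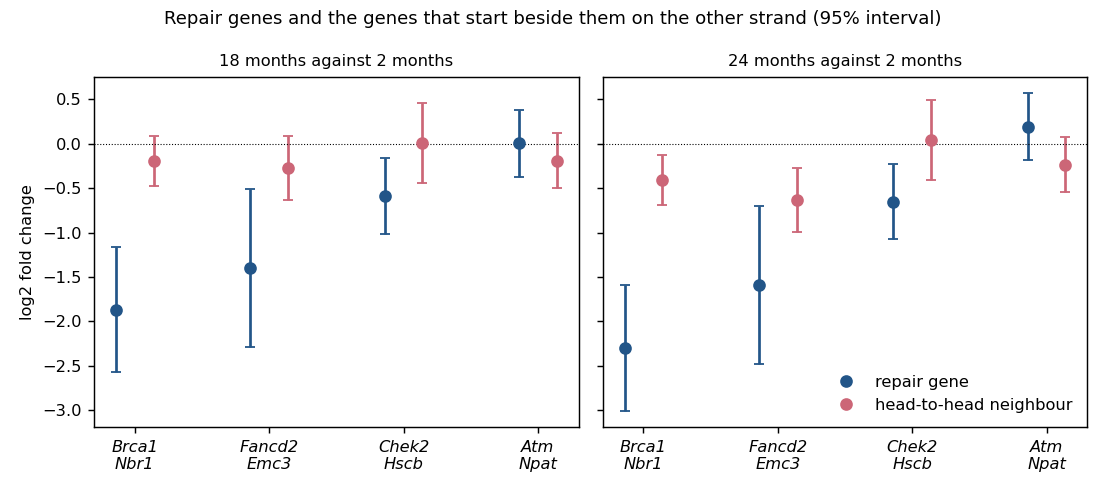
Log2 fold change (y axis, bars for the 95% interval of edgeR's fit) of 4 repair genes and of the gene that starts beside each on the other strand (x axis), at 18 and 24 months against 2 months. Brca1 stood at -1.87 and -2.30 where Nbr1 stood at -0.19 and -0.41, and Fancd2 at -1.40 and -1.59 where Emc3 stood at -0.27 and -0.63.

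The genes around the 9 members were followed in 11 lists of repair and checkpoint pathways, with 149 genes of which 146 were tested. Of these, 30 fell and 2 rose at 18 months, and 48 fell and 14 rose at 24 months, where 5.51% and 15.8% of all genes fell and 6.04% and 19.2% rose. No gene of these lists was called between 18 and 24 months by edgeR, and 6 had an unadjusted p under 0.05. The total of 32 calls at 18 months dropped to 2 without 2 month replicate 1 or 18 month replicate 3, to 3 without 18 month replicate 2, to 4 without 2 month replicate 2 and to 9 without 2 month replicate 4. That of 62 calls at 24 months dropped to 41 without 2 month replicate 1, 35 without 24 month replicate 2 and 32 without 24 month replicate 3. All 32 and 62 genes kept their sign in every alternative that gave a value for them. Of the 32, only Ube2t was called in all 19 alternatives, and of the 62, 28 were, counting Msh4, which was called in the 15 that gave it a value.

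Genes of strand exchange and end resection, the partners of Brca1 and Brca2, had many members lower. Of 19 genes, 8 fell at 18 months and 10 at 24 months, with none higher and list medians of -0.64 and -0.58 on the log2 scale. Of all genes, 5.51% and 15.8% fell. Leaving out 1 sample at a time gave 0 to 10 calls at 18 months and 8 to 13 at 24 months. Brip1, the helicase that binds Brca1, fell from 10.7 ± 2.71 CPM (SD, n = 4) to 3.90 ± 0.483 (n = 3) and 3.41 ± 1.18 (n = 3), with log2 fold changes of -1.46 (edgeR adjusted p = 0.0183) and -1.65 (adjusted p = 0.00445). Rad54l and Rad54b are motor proteins of strand exchange. Rad54l fell by 1.41 at 18 months and 1.38 at 24 months, and Rad54b by 1.83 and 2.17. The median over all genes was 0.01 and 0.03.

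In the Fanconi pathway of crosslink repair, 5 of 16 genes fell at 18 months, and 8 fell and 2 rose at 24 months. Of all genes, 5.51% fell at 18 months, and 15.8% fell and 19.2% rose at 24 months. Leaving out 1 sample at a time gave 1 to 5 calls at 18 months and 3 to 9 at 24 months. Ube2t, the enzyme that attaches ubiquitin to Fancd2, fell from 5.76 ± 1.73 CPM (SD, n = 4) to 1.27 ± 0.419 (n = 3) and 1.36 ± 0.0898 (n = 3), a log2 fold change of -2.19 (edgeR adjusted p = 0.012) and -2.08 (adjusted p = 0.00333). Fanci, the partner of Fancd2, fell by 1.46 and 2.23 on the log2 scale, and Fancb by 1.02 and 0.72. Slx4, a scaffold for nucleases, fell by 0.44 and 0.66. Of 19 alternatives, Fancb was called in 10 at 18 months and 5 at 24 months, and Slx4 in 10 and 19. The 2 genes that rose were Fan1 (0.51) and Fance (0.35), named after their values were seen. Fan1 was called in 15 of 19 alternatives and Fance in 10. List medians were -0.26 and -0.36.

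Among 7 RecQ helicases and partners of Blm, 1 fell at 18 months and 2 at 24 months, with list medians of -0.07 and -0.10. Of all genes, 5.51% and 15.8% fell. Leaving out 1 sample at a time gave 0 to 2 calls at 18 months and 1 to 2 at 24 months. Rmi2, a subunit of the complex in which Blm dissolves joined DNA, fell by 1.67 and 1.84 on the log2 scale. Recql4 fell by 1.47 at 24 months.

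Checkpoint sensors, mediators and targets held 5 of 21 genes that fell at 18 months and 9 at 24 months, with none higher and list medians of -0.22 and -0.25. Of all genes, 5.51% and 15.8% fell. Leaving out 1 sample at a time gave 0 to 6 calls at 18 months and 5 to 9 at 24 months. Topbp1, the activator of Atr, fell from 83.9 ± 15.1 CPM (SD, n = 4) to 49.9 ± 2.76 (n = 3) at 18 months, by 0.75 on the log2 scale (edgeR adjusted p = 0.0165). At 24 months it was lower than at 2 months by 0.63 (edgeR adjusted p = 0.00989). Clspn, the adaptor through which Atr reaches Chek1, fell by 1.89 and 2.17. Rnf168, a ubiquitin ligase acting downstream of phosphorylated H2A.X, fell by 0.54 and 0.78, and Cdc25c, a phosphatase that Chek1 inhibits, by 1.715 and 2.08. The interval of Atr itself included 0 at both ages.

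The other repair pathways are given in turn. Of 10 genes of non-homologous end joining, 0 were called at 18 months by edgeR, with 4 at an unadjusted p under 0.05. At 24 months Lig4, the ligase of the pathway, fell by 0.75 and Polm, a gap-filling polymerase, rose by 0.61 (edgeR adjusted p = 0.00839 and 0.0115). In mismatch repair, 1 of 7 genes was called at each age, Msh6, at -0.58 and -0.66. Its 18 month samples overlapped those of 2 months. Of 19 alternatives, Msh6 was called in 6 at 18 months and 17 at 24 months. In nucleotide excision repair, Rad23b fell by 0.40 and 0.53, Ddb1 by 0.49 at 24 months, and Ddb2 rose by 0.56 at 24 months. Rad23b was called in 8 of 19 alternatives at 18 months and in all 19 at 24 months. Of its 13 genes, 1 was lower at 18 months, and 2 were lower and 2 higher at 24 months. Of all genes, 5.51% were called lower at 18 months, and 15.8% lower and 19.2% higher at 24 months. At 24 months none of these 3 pathways had a larger share of calls than all genes in either direction. List medians for these 3 pathways were -0.11, -0.26 and -0.10 at 18 months and -0.10, -0.24 and -0.06 at 24 months.

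In base excision repair, 5 of 17 genes fell at 18 months, and 6 fell and 1 rose at 24 months. Of all genes, 5.51% fell at 18 months, and 15.8% fell and 19.2% rose at 24 months. Leaving out 1 sample at a time gave 0 to 7 calls at 18 months and 4 to 8 at 24 months. Ung, which removes uracil from DNA, fell from 18.0 ± 5.71 CPM (SD, n = 4) to 7.01 ± 0.414 (n = 3) and 5.77 ± 0.670 (n = 3), by 1.36 and 1.64 on the log2 scale. Neil3, a glycosylase, fell by 1.72 and 1.84, and Lig3, a ligase, by 0.38 and 0.51. The gene that rose was Neil2 (0.89), named after its value was seen. List medians were -0.31 and -0.27.

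**Figure D4:**
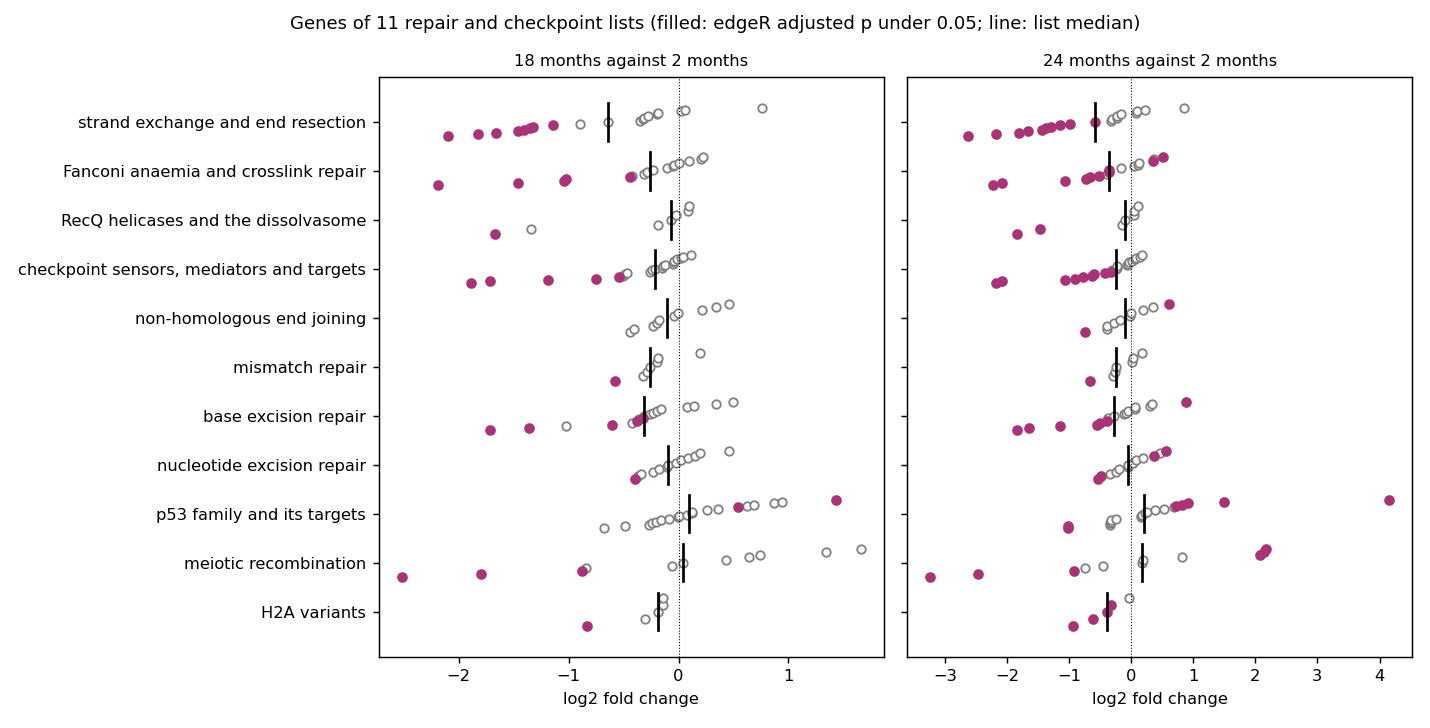
Log2 fold change (x axis) of every tested gene of the 11 repair and checkpoint lists (y axis) at 18 and 24 months against 2 months, filled where the edgeR adjusted p was under 0.05, with a line at each list's median. Strand exchange had 8 and 10 of 19 genes filled, all to the left, and its medians stood at -0.64 and -0.58.

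Genes of the p53 family and its targets had calls in both directions. At 18 months 0 of 20 fell and 2 rose, where 6.04% of all genes rose, and at 24 months 2 fell and 5 rose, where 15.8% of all genes fell and 19.2% rose. Leaving out 1 sample at a time gave 0 to 3 calls at 18 months and 2 to 8 at 24 months. List medians were 0.10 and 0.20. Pmaip1, which encodes the cell death protein Noxa, rose from 0.892 ± 0.328 CPM (SD, n = 4) to 2.40 ± 0.257 (n = 3) and 2.499 ± 0.904 (n = 3), by 1.43 and 1.49 on the log2 scale (edgeR adjusted p = 0.0305 and 0.0111). Sesn1 rose by 0.54 at 18 months, while Aen, a nuclease, fell by 1.02 at 24 months. Fas, Eda2r and Phlda3 (0.92, 0.83 and 0.72) rose and Gadd45a (-1.02) fell at 24 months, named after their values were seen. Of 19 alternatives, Phlda3 was called in 15, Gadd45a in 14, Fas in 11 and Eda2r in 6. Trp73 had a log2 fold change of 4.16 at 24 months (edgeR adjusted p = 0.0213), but its 24 month samples measured 0.336, 1.71 and 15.5 CPM and overlapped the 2 month samples. Without 24 month replicate 3 that value was 1.68 and was not called. The same sample had the highest sum of oviduct and surface epithelium markers, 1465 CPM against 128 to 172 CPM at 2 months, and the part of that in the value was not tested.

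Genes of meiotic recombination were split. Of 14 genes 11 were tested, and Hormad1, Hormad2 and Spata22 did not pass the filter. At 18 months 3 fell, and at 24 months 3 fell and 3 rose, with list medians of 0.04 and 0.17. Of all genes, 5.51% fell at 18 months, and 15.8% fell and 19.2% rose at 24 months. Leaving out 1 sample at a time gave 0 to 4 calls at 18 months and 3 to 6 at 24 months. Tex15, the most abundant, fell from 80.1 ± 27.4 CPM (SD, n = 4) to 23.1 ± 5.07 (n = 3) and 14.5 ± 10.3 (n = 3), by 1.79 and 2.47 on the log2 scale. Mcm8, a helicase needed for recombination in the germ line, fell by 0.88 and 0.92, and Msh4, which stabilises crossovers, by 2.52 and 3.23. At 18 months Tex15 was called in 9 of 19 alternatives, Mcm8 in 13 of 19 and Msh4 in 12 of the 15 that gave it a value. The 3 that rose, Dmc1, Meiob and Spo11, were named after their values were seen and stayed at or under 2.13 CPM in every sample. Of the 18 alternatives that gave them a value, Dmc1 was called in 17, Meiob in 12 and Spo11 in 11.

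Markers of oocytes and of dividing cells were lower at the ages at which Chek1, Brca1, Fancd2, H2afx, Blm, Chek2 and Brca2 were lower. Of these genes, Chek2 (-0.59 and -0.65 on the log2 scale) and Brca2 (-0.74 and -0.54) differed least. Chek2 and Blm were not called at 18 months by edgeR. The intervals of Atm and Atr included 0 at both ages. The summed level of 16 oocyte markers was 340.3 to 741 CPM at 2 months, 56.9 to 109.8 CPM at 18 months and 50.25 to 120.0 CPM at 24 months. Of these, 14 fell at 18 months and 15 at 24 months, where 5.51% and 15.8% of all genes fell. Their medians were -3.03 and -4.21 on the log2 scale. All 18 markers of cell division fell at both ages, with sums of 571 to 1033, 193 to 306 and 107 to 284.5 CPM and medians of -1.74 and -2.19. Of 16 DNA replication genes, 14 and 15 fell, with sums of 513 to 973, 363 to 410 and 325 to 401 CPM. Figla, an oocyte transcription factor, had 0 counts in 24 month replicate 3, and no other gene of these 3 lists was at 0 in any sample. The part of these cells in the lower levels of the repair genes was not tested.

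Other markers also differed, and their calls stand beside shares of all genes. At 18 and 24 months 5.51% and 15.8% of all genes were called lower, and 6.04% and 19.2% higher. All 10 macrophage markers rose at 24 months and 9 at 18 months, with sums of 239 to 301, 497 to 682 and 565 to 647 CPM. T cell markers summed to 9.38 to 13.9, 29.2 to 39.7 and 21.1 to 56.8 CPM, with 6 and 9 of 10 higher, and B cell markers had 2 and 4 of 8 higher. Of 10 granulosa cell markers, 3 and 4 fell, with sums of 3148 to 4192, 1751 to 3223 and 1482 to 3938 CPM. Stroma markers had 2 and 4 of 8 higher, and oviduct and surface epithelium markers 6 and 8 of 10. Of 8 corpus luteum and steroid synthesis genes, 0 were called at 18 months by edgeR (0 at an unadjusted p under 0.05) and 4 fell at 24 months. The part of each in the values of the 9 genes was not tested.

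Within an age the 9 genes also moved with the sample. At 2 months, replicate 3 was the lowest of the 4 samples for all 9 genes, Atm and Atr included. It also had the lowest sums of oocyte, cell division and DNA replication markers at that age and the highest of corpus luteum genes, 74620 CPM. Without it, 6 members were called at 18 months and 7 at 24 months. At 24 months, replicate 1 was the highest for 6 of the 9 genes, and replicate 3 was the lowest for 4 and the highest for Atm, Atr and Brca2.

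**Figure D5:**
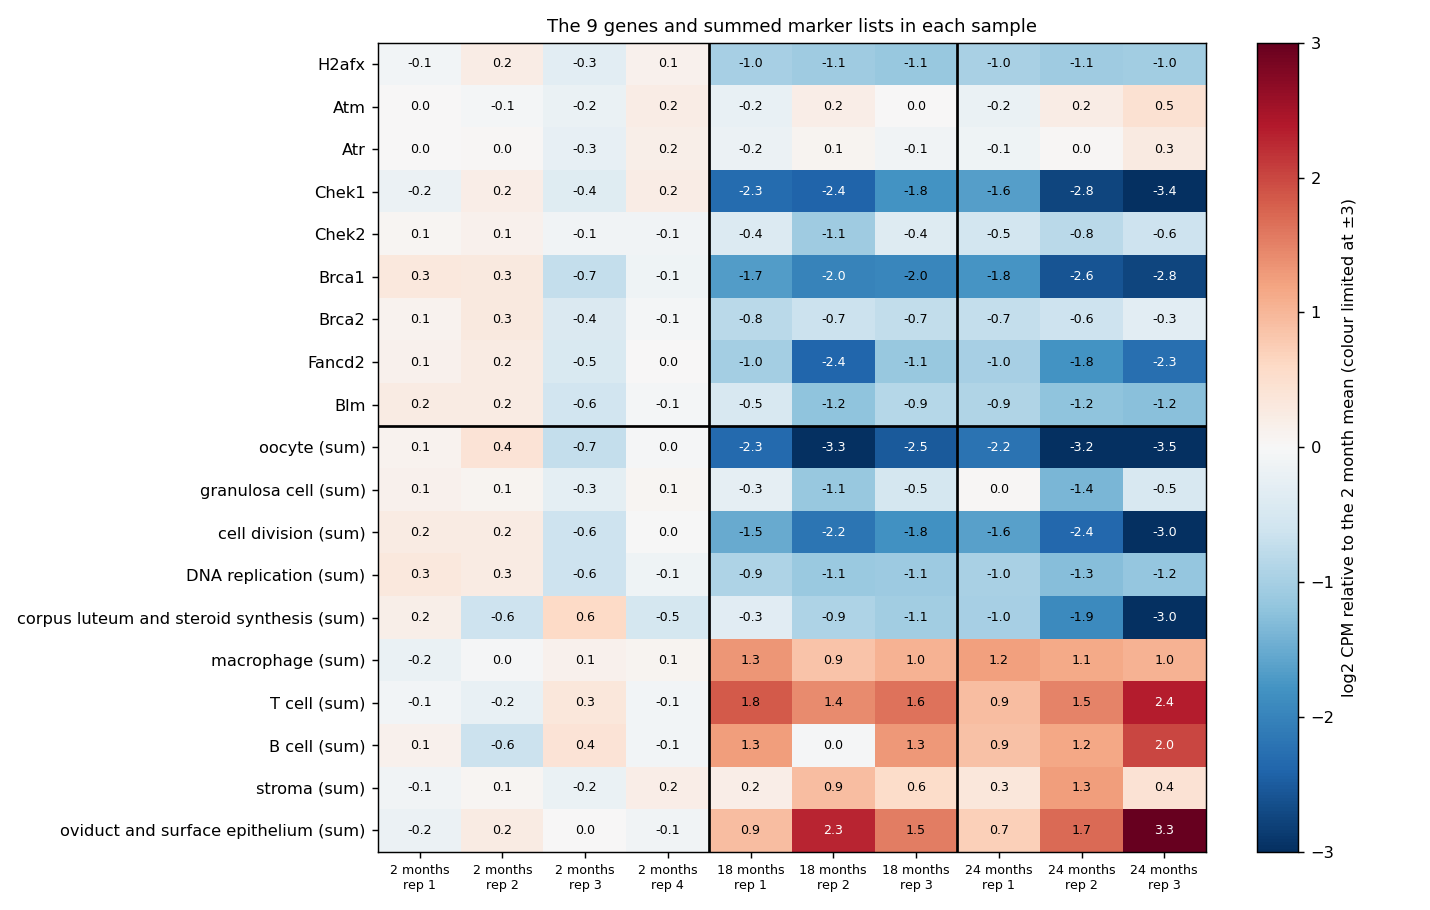
Log2 CPM of each of the 9 genes and of summed marker lists (y axis) in each sample (x axis), relative to the mean of the 2 month samples, with the colour scale limited at 3 in each direction. Chek1 reached -3.4 in 24 month replicate 3, where the cell division sum reached -3.0 and the oocyte sum -3.5, while Atm stood at 0.5 in that sample.

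The genes whose pattern over the 10 samples was most like that of a member were found by the mean absolute difference in log2 CPM relative to the 2 month mean, over 12385 genes of at least 5 CPM. For Chek1 the 5 closest were Ube2c (0.191), Top2a (0.234), Mki67 (0.238), Bub1b (0.240) and Ttk (0.260). All 5 were in the list of 18 cell division genes. That list was chosen with earlier results of these data known, and all 18 of its genes fell at both older ages. The measure is relative to the 2 month mean, so a like fall from 2 months can by itself bring a gene close. Chek1 was chosen with its fold changes against 2 months known, so this overlap is a description and supports nothing. Top2a, the topoisomerase of mitotic chromosomes, measured 179 ± 49.5 CPM (SD, n = 4), 47.7 ± 14.5 (n = 3) and 34.8 ± 22.2 (n = 3).

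For H2afx the 5 closest were Mtmr14 (0.0852), Ezh2 (0.110), Suv39h2 (0.111), Carhsp1 (0.121) and Srm (0.121), and none of them was in any list used here. As for Chek1, a like fall from 2 months can by itself bring a gene close, so this order is a description. Mtmr14 encodes a lipid phosphatase and measured 55.1 ± 8.02 CPM (SD, n = 4), 29.4 ± 1.86 (n = 3) and 27.96 ± 1.14 (n = 3). Ezh2 and Suv39h2 encode methyltransferases of histone H3, and Ezh2 measured 43.5 ± 7.81, 22.6 ± 2.73 and 19.4 ± 1.34 CPM. The ratio of Chek1 to H2afx in CPM spanned 1.05 to 1.21 in the 2 month samples, 0.444 to 0.709 in those of 18 months and 0.214 to 0.702 in those of 24 months, without overlap between young and older samples.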

How the data were processed

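RNA of whole ovaries was isolated with Trizol and a column step with DNase digestion, and libraries came from Illumina's kit for stranded mRNA, per the labels' protocols. The deposited values are raw counts, with a column for each library. The submitters' processing notes name the tools FastQC, cutadapt, STAR and HTSeq and mm10 as the genome build. Versions and the counting strand were not given in the sources. Coordinates are those of the table, and 52787 of its 54232 identifiers had the same ones in GENCODE M21, including all 9 repair genes.

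Genes were kept by filterByExpr (20331 tested). After TMM scaling, a quasi-likelihood F-test in edgeR 4.0.16 (limma 3.58.1, R 4.3.3) was fitted over the 3 ages together. It was two-sided, with Benjamini-Hochberg adjustment over all genes tested. The SE of a log2 fold change is that value divided by the square root of F, without its sign, and 95% intervals use the degrees of freedom of the fit. The fit had 7 residual degrees of freedom and a common biological coefficient of variation of 0.32. The likeness of patterns used log2 CPM with 0.5 added. CPM per kb used the longest principal transcript in GENCODE M21. The fit was checked on simulated counts with the dispersions of these data. At 18 against 2 months it called 60.7% of 4-fold and 32.3% of 2-fold changes in the right direction. At 24 against 2 months it called 61.7% and 34%, and at 24 against 18 months 56% and 26.7%. Many changes of these sizes were thus missed in the simulation. It changed far fewer genes than were called against 2 months in the data, so its shares need not hold for those comparisons. A gene not called is not shown to be unchanged.

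The 9 genes and the lists were chosen with earlier results of these data known. Of each pathway list, up to 3 called genes with the smallest p per comparison were named. Others are said to be named after their values were seen. One gene that this rule would name is not reported here. Same-numbered samples of 18 and 24 months deviated together from their age means (correlations 0.389, 0.280 and 0.147). Samples of these ages with unlike numbers gave -0.327 to 0.135, so a pairing is not established. The labels do not say what a number shares. The main fit left the numbers out, and a replicate block was an alternative. Same-numbered samples of 2 months and the older ages did not deviate together (-0.113 to 0.063).

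Alternatives were the size factors of DESeq2, library totals, no filter and a stricter one, a replicate block, only the ages compared, the test of DESeq2 1.42.0, limma-voom, all 11 libraries apart, and leaving out each sample. Adjusted p-values were missing from DESeq2 for 51 genes against 2 months and 1234 between the older ages.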

Additional observations from a re-analysis of the deposited data

Results flagged for a closer look

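In 6 of 94 sets of 4 samples of 2 months, 1 sample lay far from the other 3, and chance gives about 1 in 20. Replicate 3 had the lowest summed level of base excision repair genes, 484 CPM, and of granulosa cell markers, 3148 CPM. Replicate 1 had the lowest ratio of H2afx to H2afz, 0.244, and the highest level of Rad51c, 14.96 CPM. Replicate 2 had the highest level of Trp73, 0.653 CPM, and of Carhsp1, 306 CPM.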

How the results depend on the processing

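Of the 9 genes, those called at 18 or 24 months against 2 months kept their sign in all 19 alternatives. Leaving out 1 sample at a time gave 2 to 6 members, 2 to 40 pathway genes and 375 to 2748 genes in all called at 18 months, against 5, 32 and 2349. At 24 months it gave 4 to 7 members, 32 to 60 pathway genes and 4283 to 7467 genes, against 7, 62 and 7120. Between the older ages it gave 0 to 2 genes, against 1, and no member. Without 18 month replicate 3, the shallow pair of libraries summed, the 18 month counts were lowest, at 2 members, 2 pathway genes and 375 genes. They were nearly as low without 2 month replicate 1, at 3, 2 and 382, and without 18 month replicate 2 members were also 2. A replicate block gave 2 members, 16 pathway genes and 1034 genes at 18 months. Between the older ages, where same-numbered samples deviated together, it gave 0 genes and changed no call of a member. At 18 months, library totals alone gave 3 members, and no filter 21 pathway genes. DESeq2 gave 52 pathway genes and 4052 genes at 18 months and 194 between the older ages, and all 11 libraries kept apart gave 51 and 4000 at 18 months. Library totals alone and a fit of only the 2 older ages gave 0 genes between them. The cause of these differences was not tested. Scaling by library totals moved the median log2 fold change of all genes from 0.03 to 0.22 at 24 months against 2 months and from 0.03 to 0.12 between the older ages, and the share of higher calls from 52.3% to 66.7% at 18 months and from 54.9% to 73.0% at 24 months. Atr had values on both sides of 0 at both ages and Atm at 18 months. Depth limits Fancd2 most, at 61 counts in its lowest sample.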
